A study of Rattus norvegicus with 6 samples.

Results

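The genes described here encode proteins of mitosis and cytokinesis, the steps in which a cell sorts its copied chromosomes and then splits in 2. The list holds 48 genes, drawn up by function with earlier results of these data known. Shares of the list set beside those of all genes are therefore descriptions and not tests. A gene was found through the RefSeq accession of its array probe, was represented by its brightest probe, and entered the test if every array of 1 group or the other showed that probe well above background. Of the 48 genes 41 matched a probe and 38 were tested, among 11802 tested genes in all. The 7 genes with no matched probe were Top2a, Bub1b, Melk, Kif4a, Cenpe, Cenpk and Ect2, and they are not analysed here. At the detection limit, Kif2c was kept with its probe well above background on 1 of 3 vehicle arrays and all 3 TCEP arrays. Aurkb, well above background on 1 vehicle and 2 TCEP arrays, Cenpa, on 2 and 2, and Hmmr, on 0 and 0, were left out. Kif2c passed through the group in which it is brighter, while the other 37 tested genes were well above background on all 6 arrays.

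Gene expression was measured in the renal cortex, the outer kidney with its glomeruli and most of its tubules, on 6 single-colour arrays with 1 rat each. All were male Sprague-Dawley (Crl:CD(SD)) rats, an outbred stock, bought at 5 weeks of age. 3 rats received corn oil as the vehicle for 4 weeks, and 3 received tris(2-chloroethyl)phosphate (TCEP), a chlorinated flame retardant and plasticiser, at 400 mg/kg/day for 4 weeks. The question put to the arrays is which cortex transcripts differ after TCEP. A level is the log2 signal minus the log2 75th percentile of the array, so 0 is the 75th percentile of all probes on it. A difference is TCEP minus vehicle on that log2 scale, and levels of separate probes are not compared. All vehicle arrays lay on slide 1 with scan time 1 and all TCEP arrays on slide 2 with scan time 2, so slide, scan and treatment cannot be told apart. Between 67.2% and 69.3% of the probes of an array were well above background, and the 75th percentile of the signal lay between 966 and 1078 intensity units, highest on TCEP replicate 1. All 14 markers for proximal tubule and all 7 for podocytes were detected, as were 9 of 10 for the loop and distal nephron. The 10th, Slc12a1, had no matched probe. Detection of these markers cannot tell cortex from other parts of the kidney, so the label was not tested.

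Entry into mitosis is driven by the kinase Cdk1 bound to cyclins of the A and B types, and exit follows when the anaphase-promoting complex marks the cyclins for destruction. Between these points the spindle attaches to kinetochores, a checkpoint waits for the attachments, and the chromatids part before the cell divides. The transcripts of these genes accumulate in G2 and M phase and are low in resting cells. In the adult kidney few tubule cells divide at any time, and more do after injury. In cortex RNA, more dividing cells and more transcript per dividing cell cannot be told apart.

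Promoters of such genes are known for CCAAT boxes, bound by NF-Y, and for the cell cycle homology region with the letters TTTGAA, bound by the DREAM and B-Myb complexes. RefSeq windows on the GRCr8 build, 300 bases long from 250 before to 50 after the start, were found for 41 of the 48 genes. CCAAT on either strand stood in 33 of the 41 windows (80.5%), against 37.7% of the windows of all 27457 genes in that table, and TTTGAA on either strand in 29 (70.7%), against 18.1%. Both stood in 25 windows (61%), against 7.25% of all genes, and 25 windows held CCAAT at least 2 times, against 11.5%. The letters TTTAAA stood in 12 windows (29.3% against 13.5%), and GCGGGAA or GCGCGAA, known from E2F sites, in 3 (7.32% against 5.88%, and against 10.1% of the 9625 tested genes with a window). The 130 bases before the start of 5 genes are printed 5′ to 3′ on the strand of the gene to show these letters in genes whose differences ranged from 1.11 (Ckap2) and 0.55 (Ccnb1) to 0.29 (Cdc20), 0.24 (Cks1b) and 0.21 (Cks2). Capitals mark CCAAT or TTTGAA or their reverse complements ATTGG and TTCAAA, which do not overlap each other here.
Ckap2: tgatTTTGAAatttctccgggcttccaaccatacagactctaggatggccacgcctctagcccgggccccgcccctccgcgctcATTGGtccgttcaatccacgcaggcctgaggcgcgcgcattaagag
Ccnb1: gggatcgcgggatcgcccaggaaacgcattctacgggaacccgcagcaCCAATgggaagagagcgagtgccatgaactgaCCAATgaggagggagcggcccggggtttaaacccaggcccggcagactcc
Cdc20: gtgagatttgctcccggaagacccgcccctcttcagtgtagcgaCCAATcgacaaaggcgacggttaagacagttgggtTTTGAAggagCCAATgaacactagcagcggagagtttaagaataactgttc
Cks1b: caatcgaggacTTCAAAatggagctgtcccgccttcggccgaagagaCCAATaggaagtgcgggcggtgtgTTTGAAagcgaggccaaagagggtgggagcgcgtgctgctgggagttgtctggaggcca
Cks2: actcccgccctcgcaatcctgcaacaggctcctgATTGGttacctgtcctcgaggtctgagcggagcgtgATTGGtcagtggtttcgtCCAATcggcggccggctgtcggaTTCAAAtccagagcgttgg
They lie at chr16:76541984-76542113 (plus strand), chr2:33655226-33655355 (minus), chr5:137255800-137255929 (minus), chr2:177135334-177135463 (minus) and chr17:13727520-13727649 (minus) of GRCr8, with no annotated gene over them. In Cdc20 the TTTGAA begins at position -51, counted back from the start, between CCAAT at -86 and at -41. Ccnb1 shows CCAAT at -82 and -50 and no TTTGAA in its window, but holds TTTAAA at -25, printed in small letters. In Ckap2, the gene with the largest difference, TTTGAA and CCAAT stand farther apart, with TTTGAA at -126 and the reversed CCAAT at -46. A match of letters shows no binding.

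The differences were also set beside the letters. The 20 tested mitosis genes with both CCAAT and TTTGAA had a median difference of 0.51, and 95% of them were higher, 55% at an unadjusted p under 0.05. The 12 with a window but not both had a median of 0.47, with 100% higher and 25% at that p. Among the other tested genes, 472 had both sets of letters, with a median of 0.02, 56.6% higher and 4.87% at that p. The 9121 with a window and not both had a median of 0.01, 52.8% higher and 4.14% at that p. This comparison was chosen after the values were seen.

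Of the 38 tested genes 37 had a higher mean in TCEP-treated cortex, where 52.5% of all tested genes did (63.9% without scaling between arrays). The median difference was 0.51, a fold of 1.42, against 0.01 over all 11802 genes, and single differences ran from -0.11 to 1.11. No gene passed the test. With limma and Benjamini-Hochberg adjustment over all genes 0 of the 38 were called, as were 0 of all 11802 (0%), and the adjusted p of the 38 lay between 0.528 and 0.946. At an unadjusted p under 0.05 there were 18 of the 38, all higher (47.4%, against 4.24% of all genes in that direction and 8.36% in either), and 0 lower (against 4.13%). In 14 of 38 all TCEP arrays lay above all vehicle arrays (36.8%, against 8.66%), and in 0 all lay below (against 6.99%). 13 of the 38 were at least 1.5-fold higher (background 1.68%) and 1, Ckap2, at least 2-fold (background 0.483%). Kif2c, which entered through its TCEP arrays, is among the 18, the 14 and the 13. Over the 37 genes well above background on all 6 arrays, refitted with such genes only, 18 had an unadjusted p under 0.05 (48.6%, against 8.27% of all genes) and 13 had no overlap (35.1% against 8.61%).

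**Figure D1:**
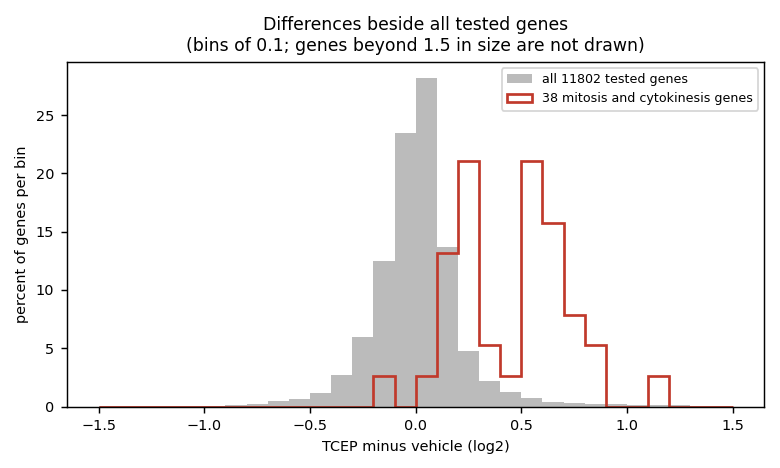
Histogram of the TCEP minus vehicle difference (log2, horizontal axis) as a percent of genes per bin of 0.1, for all 11802 tested genes (grey) and the 38 tested mitosis and cytokinesis genes (red outline). The 38 lie between -0.11 and 1.11 around a median of 0.51, while all genes centre on 0.01, and 22 genes beyond 1.5 in size are not drawn.

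Among the cyclins, kinases and their regulators, 12 of 13 genes were tested and all 12 had higher means, with a median of 0.46. At an unadjusted p under 0.05 there were 6 of the 12 (background 4.24% of all genes). Cdk1, the kinase that starts mitosis, was at 0.88, -0.05 and -0.03 in vehicle replicates 1 to 3 and at 1.27, 0.90 and 0.99 in TCEP replicates 1 to 3. The lowest TCEP array thus exceeded vehicle replicate 1 by very little and the other vehicle arrays by almost a doubling. Its difference was 0.79 (SE 0.27, adjusted p = 0.555). Ccna2, cyclin A2, was at -1.03, -1.63 and -1.78 in vehicle arrays. Its TCEP arrays were at -0.80, -0.94 and -0.97 (difference 0.58, SE 0.20). Ccnb2, cyclin B2, was at -2.77, -3.25 and -3.44 and at -2.12, -2.90 and -2.37, a difference of 0.69 (SE 0.25). TCEP replicate 2 fell below vehicle replicate 1 there, so the groups overlapped.

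Pbk, a mitotic protein kinase, was at -2.89, -3.94 and -3.65 in vehicle and -2.72, -2.91 and -2.50 in TCEP arrays (difference 0.78, SE 0.28). Plk1, the polo-like kinase needed for spindle assembly and cytokinesis, was at -0.49, -1.09 and -1.14 and at -0.25, -0.50 and -0.42 (difference 0.52, SE 0.19). In both, vehicle replicate 1 lay just inside the TCEP range and the other vehicle arrays lay well below it. Of the rest, Ccnb1, cyclin B1, differed by 0.55, Nek2, a centrosome kinase, by 0.40, Aurka, the Aurora kinase of the spindle poles, by 0.35, and Cdkn3, a phosphatase that acts on cyclin-dependent kinases, by 0.28. The Cdk-binding subunits Cks1b and Cks2 differed by 0.24 and 0.21, and being close relatives they may share signal between probes. Foxm1, the transcription factor of the G2/M program, differed by just 0.11 (95% confidence interval -0.15 to 0.38).

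The chromosomal passenger complex, which corrects faulty kinetochore attachments, was split. Birc5, survivin, was at -0.57, -0.90 and -0.80 in vehicle and -0.01, -0.50 and -0.39 in TCEP arrays, without overlap (difference 0.46, SE 0.15). Cdca8, borealin, was at -4.73, -4.96 and -4.57 and at -4.84, -5.02 and -4.73, and was the 1 tested gene with a lower mean (difference -0.11, 95% confidence interval -0.43 to 0.21). Its highest array was vehicle replicate 3, the array that was lowest for most of the other genes. The kinase of the complex, Aurkb, was too dim to test.

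All 3 tested spindle checkpoint genes had higher means, and 0 of them reached an unadjusted p under 0.05. The differences were 0.61 (SE 0.33) for the kinase Ttk, which recruits the checkpoint to kinetochores, 0.29 (SE 0.18) for the kinase Bub1 and 0.16 (SE 0.12) for Mad2l1, which restrains Cdc20. Ttk had the widest error of all 38 genes: vehicle replicate 3 stood at -3.41, vehicle replicate 1 at -2.09, and the TCEP arrays between -2.39 and -2.08.

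All 4 tested kinetochore genes had higher means. Cenpf, a large protein of the outer kinetochore, was at -4.48, -4.55 and -5.16 in vehicle and -3.93, -4.16 and -4.21 in TCEP arrays, without overlap (difference 0.63, SE 0.20). It differed by 0.22 with normexp, a setting with another background correction, median spot signals and quantile normalization between arrays. Nuf2, Spc25 and Ndc80, subunits of the complex that grips microtubule ends, differed by 0.65, 0.59 and 0.58, of which Spc25 reached an unadjusted p under 0.05. Each had an SE between 0.22 and 0.28. With normexp the same 3 genes differed by 0.30, 0.61 and 0.38.

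Among the spindle motors and microtubule proteins all 8 tested genes had higher means, with a range from 0.12 to 1.11. Ckap2, a microtubule protein of the spindle poles, was at -1.29, -2.03 and -2.28 in vehicle and -0.25, -1.06 and -0.94 in TCEP arrays (difference 1.11, SE 0.32). Kif2c, a kinesin that takes microtubules apart at centromeres, was at -5.12, -5.91 and -5.75 and at -4.42, -4.94 and -4.83 (difference 0.86, SE 0.24, and 0.22 with normexp). Kif22, a kinesin that moves chromosome arms, was at -0.29, -0.78 and -1.09 and at 0.08, -0.16 and -0.17 (difference 0.64, SE 0.21). For Kif2c the vehicle values are mostly of a probe not well above background, so its difference is a description only. In all 3 the groups did not overlap, and vehicle replicate 1 was the vehicle array nearest to the TCEP arrays.

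The others differed by 0.58 for Nusap1, which bundles spindle microtubules, 0.26 for Tpx2, the activator of Aurora A, 0.19 for Stmn1, 0.16 for Tacc3 and 0.12 for Kif11, the motor that pushes the poles apart. Stmn1, a microtubule destabiliser made in resting cells too, departed from the common order on its brightest probe. Vehicle replicate 1 was the lowest array there, at 3.61, and vehicle replicate 2 stood at 4.01 beside TCEP arrays of 3.93, 4.08 and 3.94. Its 2 further probes gave 0.30 and 0.34 with smaller errors (SE 0.08 each). On both, vehicle replicate 2 was again the highest vehicle array, but vehicle replicate 3 was lowest by little and the groups did not overlap.

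For the parting of chromatids, Pttg1, securin, differed by 0.50 (SE 0.22). Its partner Espl1, separase, the protease that cuts cohesin, was at -2.59, -2.70 and -2.25 in vehicle and -2.06, -2.72 and -2.55 in TCEP arrays, a difference of 0.07 (95% confidence interval -0.43 to 0.57) whose sign turned in 4 of 17 settings. A further, dimmer probe of Espl1 gave 0.47 (SE 0.13), so its probes disagree in size.

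All 3 partners of the anaphase-promoting complex had higher means at an unadjusted p under 0.05 (background 4.24% of all genes). Cdca3, a trigger of mitotic entry through Wee1 destruction, was at -0.62, -1.38 and -1.56 in vehicle and -0.37, -0.48 and -0.44 in TCEP arrays (difference 0.75, SE 0.24). Its TCEP arrays stayed within a narrow band while the vehicle arrays spread widely. Ube2c, the ubiquitin-conjugating enzyme of the complex, was at -1.99, -2.54 and -2.81 and at -1.66, -1.92 and -1.79 (difference 0.66, SE 0.22), likewise without overlap. Cdc20, its activator, differed by 0.29 (SE 0.12).

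In cytokinesis, all 4 tested genes had their TCEP arrays above all vehicle arrays (background 8.66% of all genes). Kif20a, a kinesin of the central spindle, was at -1.48, -1.97 and -2.32 in vehicle and -0.86, -1.37 and -1.06 in TCEP arrays (difference 0.83, SE 0.24). Prc1, which cross-links the microtubules of the central spindle, was at -1.75, -2.14 and -2.47 and at -1.48, -1.63 and -1.50 (difference 0.58, SE 0.18). Kif23 and Racgap1, the 2 parts of centralspindlin, differed by 0.26 (SE 0.11) and 0.24 (SE 0.09).

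**Figure D2:**
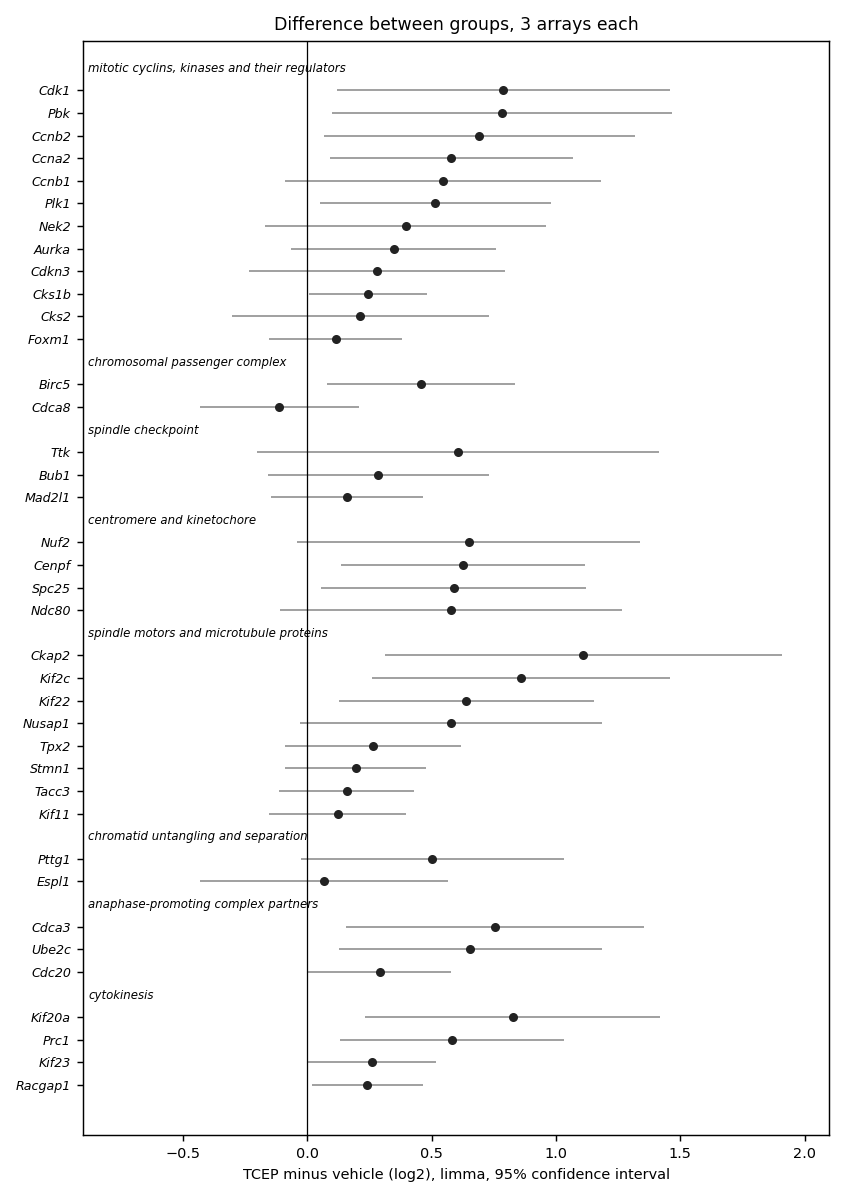
TCEP minus vehicle difference (log2, horizontal axis) of each tested gene with its 95% confidence interval from limma, in blocks by role, 3 arrays per group. Points lie right of 0 for 37 of 38 genes, from Cdca8 at -0.11 to Ckap2 at 1.11, and 18 intervals exclude 0 before adjustment.

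Further probes gave the same sign. For 18 of the tested genes 26 other probes were detected, and all 26 had a difference above 0, with a median of 0.38. Over all genes 45.9% of 8634 further probes lay above 0, and 66.4% had the sign of the gene's brightest probe. The 2 further probes of Ckap2 gave 1.20 and 1.15, close to its 1.11, and the 3 of Ccna2 gave 0.59, 0.58 and 0.85 beside 0.58. The Ccna2 probe at 0.85, 1 of the 26, was well above background on 1 of 3 vehicle arrays and all 3 TCEP arrays. It passed through the group in which it is brighter, so its difference is a description only. Sizes differed more in other genes, as with 0.33 beside 0.58 for Prc1 and 0.03 beside 0.12 for Kif11. For Espl1 the further probe gave the larger value, 0.47 beside 0.07. All further probes report on the same RNA samples and so add no animals.

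Most of the genes also had their arrays in a similar order. TCEP replicate 1 was the highest of the 6 arrays for 30 of 38 genes (19.3% of all genes), and vehicle replicate 3 the lowest for 27 (21.9%). Vehicle replicate 1 was the highest vehicle array for 34 (33%), and vehicle replicates 2 and 3 both lay below every TCEP array for 32 (13%). The mean over the 38 genes, each relative to its own mean, was 0.09, -0.33 and -0.45 in vehicle and 0.40, 0.12 and 0.17 in TCEP arrays, so that vehicle replicate 1 came close to TCEP replicate 2. Between 2 vehicle-treated rats, replicates 1 and 3, the median difference over the 38 genes was 0.66, beside 0.51 between the groups. Of the 38, 34 were higher in replicate 1 (54.8% of all genes). This pair differed most among the pairs within a group, and it sets single arrays beside means of 3, which vary less. Between vehicle replicates 1 and 2 the median difference was 0.44, and between TCEP replicates 1 and 2 it was 0.24. The SD over 3 arrays was larger in vehicle than in TCEP for 32 of 38 genes (48.1% of all genes), with a median of 0.36 against 0.17. For all tested genes these medians were 0.11 and 0.12.

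**Figure D3:**
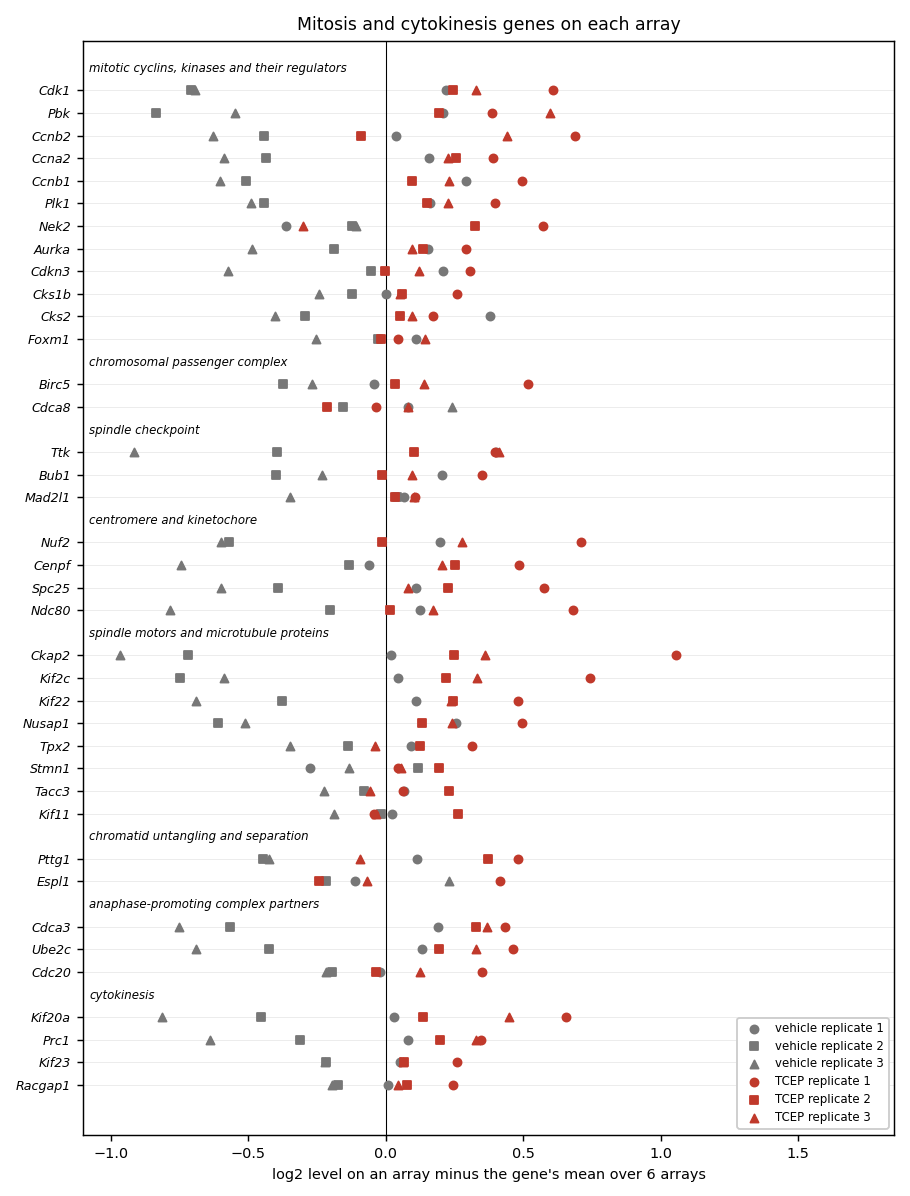
Level of each tested gene on each of the 6 arrays (log2, relative to the mean of the gene, horizontal axis), vehicle in grey and TCEP in red, with a marker shape for each replicate. Vehicle replicates 2 and 3 (square and triangle) stand left of all TCEP arrays for 32 of 38 genes, and vehicle replicate 1 (circle) lies nearer to the TCEP arrays.

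The count of genes at an unadjusted p under 0.05 varied with the rats that entered the comparison. Without vehicle replicate 1 the count without overlap went from 14 to 32 (background 13.0%), but leaving out an array cannot lower that count. The count at an unadjusted p under 0.05 went from 18 to 29 of 38 there (background 5.93%). It was 4 without TCEP replicate 1 (10.5%, against 7.36% of all genes), 5 without vehicle replicate 2 (13.2% against 8.54%), 6 without vehicle replicate 3 (15.8% against 6.96%), 10 without TCEP replicate 3 (26.3% against 8.52%) and 14 without TCEP replicate 2 (36.8% against 6.04%). With array weights it was 4 (10.5%, near the 12.0% of all genes) and the median was 0.31. TCEP replicate 1 counted least there (0.554), and TCEP replicate 2 (1.95) and vehicle replicate 1 (1.87) counted most. The median stayed above 0 in all 17 settings, from 0.31 to 0.71, and at least 36 genes had a higher mean in each. With normexp the median was 0.34, and differences were smaller than those above for Pbk (0.36), Prc1 (0.36), Ttk (0.29), Nek2 (0.14), Cdkn3 (0.11) and Foxm1 (0.0034), and larger for Cks1b (0.38) and Stmn1 (0.31).

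**Figure D4:**
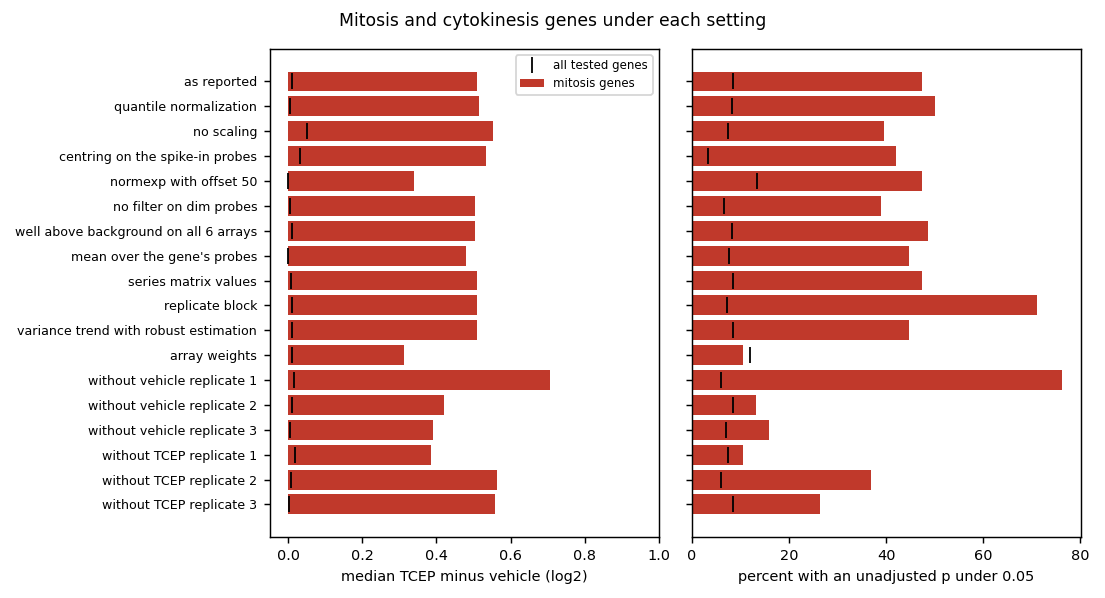
Left, median TCEP minus vehicle difference (log2) of the tested mitosis genes under each setting (bars) and of all tested genes (ticks). Right, the percent with an unadjusted p under 0.05. The medians run from 0.31 to 0.71, while the right panel falls to 10.5% with array weights and without TCEP replicate 1.

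Genes of neighbouring steps were read from further lists. Of 75 other G2/M and mitosis genes 44 were tested, 34 of these had higher means and 10 lower, and the median was 0.28. At an unadjusted p under 0.05 there were 9 upward and 0 downward (background 4.24% and 4.13% of all genes). Knstrn, a kinetochore and spindle protein, was at -1.09, -1.77 and -1.77 in vehicle and -0.57, -0.79 and -0.82 in TCEP arrays (difference 0.82, SE 0.20). Gtse1, expressed in G2 and bound to microtubules, differed by 1.00 (SE 0.29). It was dim, at -4.58, -5.07 and -5.60 in vehicle and -3.75, -4.14 and -4.35 in TCEP arrays. Spag5, the spindle protein astrin, differed by 0.77 (SE 0.22) and Aspm, a spindle pole protein, by 0.35 (SE 0.10). These 4 had no overlap between groups and an adjusted p of 0.528, and vehicle replicate 1 was again the highest vehicle array of each.

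DNA replication and S phase genes, of which 34 of 42 were tested, had a median of 0.06, with 23 higher and 11 lower. At an unadjusted p under 0.05 there were 4 upward and 2 downward (background 4.24% and 4.13% of all genes). Rrm2, a subunit of ribonucleotide reductase, was at 1.38, 0.61 and 0.13 in vehicle and 1.79, 1.81 and 1.76 in TCEP arrays (difference 1.08, SE 0.30), with the same vehicle order as the mitosis genes. The helicase genes Cdc45 and Mcm4 differed by 0.48 (SE 0.12) and 0.18 (SE 0.06), while the dim Gins3 of the same machinery differed by -0.55 (SE 0.16). Subunits of the anaphase-promoting complex itself, which resting cells also make, had a median of 0.03 over 15 genes. At an unadjusted p under 0.05 there were 0 in either direction (Anapc15 -0.18, and Fzr1, its G1 activator, 0.11). Cohesin and condensin core genes had a median of 0.02 over 10 genes, also with 0 in either direction (Pds5a -0.16, Stag2 0.10). The DREAM and MuvB complex genes had a median of 0.07 over 9, with 1 upward, Rbl2, the pocket protein p130, at 0.20 (SE 0.07).

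**Figure D5:**
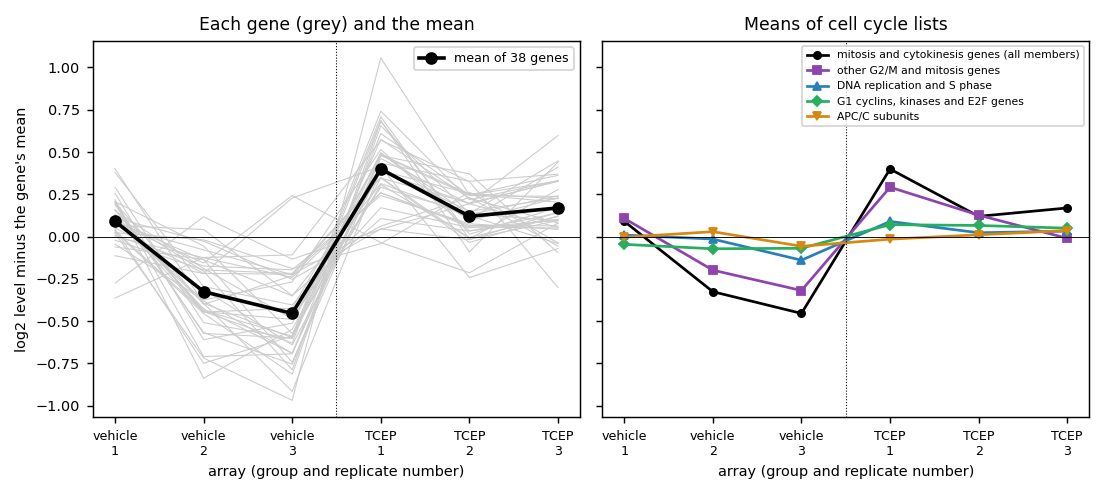
Level relative to the mean of each gene (log2, vertical axis) on the 6 arrays. Left, each of the 38 genes (grey) and their mean (black), which runs from -0.45 in vehicle replicate 3 to 0.40 in TCEP replicate 1. Right, means of 5 cell cycle lists, where the other G2/M and mitosis genes follow the same order over the vehicle arrays and the anaphase-promoting complex (APC/C) subunits stay within 0.06 of their mean.

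Markers of blood cells, some of which divide, were read on the same arrays. Lymphocyte markers (9 of 12 tested, 3 higher, median -0.04) had list means of -0.26, 0.50 and -0.16 in vehicle and between -0.08 and 0.06 in TCEP arrays. Their defining genes Cd79a and Ms4a1 had no matched probe and Cd3e was not well above background. Erythroid precursor markers (7 of 9 tested, 2 higher, median -0.20) were at 0.12, 0.43 and -0.30 in vehicle and between -0.32 and 0.05 in TCEP arrays, with Gata1 not well above background. Neutrophil markers (4 of 7 tested, 0 higher, median -0.59) were at 0.10, 1.26 and -0.50 in vehicle and between -0.65 and 0.11 in TCEP arrays, and Elane was not well above background. Macrophage markers (8 of 10 tested, 0 higher, median -0.18) were at -0.18, 0.30 and 0.22 in vehicle and between -0.21 and -0.03 in TCEP arrays. Vehicle replicate 2 had the highest mean of each of these blood cell lists, though for macrophage markers vehicle replicate 3 was close. Without vehicle replicate 2 the median of the mitosis genes was 0.42, and 5 of 38 had an unadjusted p under 0.05 (13.2% against 8.54% of all genes). The part of blood cells in the differences of the mitosis genes was not tested.

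Proximal tubule markers (14 of 14 tested, 5 higher, median -0.03) were lowest on TCEP replicate 1, at -0.20, the array highest for the mitosis genes, and lay between 0.01 and 0.09 on the other arrays. Podocyte markers (7 of 7 tested, 0 higher, median -0.23) were also lowest there, at -0.29, and lay between -0.06 and 0.20 elsewhere. Immediate early genes, which respond to handling of the tissue (8 of 9 tested, 3 higher, median -0.10), were highest on vehicle replicate 1, at 0.62, the vehicle array highest for the mitosis genes, with vehicle replicates 2 and 3 at 0.02 and -0.26 and TCEP arrays between -0.42 and 0.14. Atf3 was at -0.41, -0.78 and -0.69 in vehicle and -0.97, -1.18 and -1.52 in TCEP arrays (difference -0.60, SE 0.17), with vehicle replicate 2 its lowest vehicle array. Fos, an immediate early transcription factor, was at -1.68, -2.96 and -4.12 in vehicle and between -4.29 and -3.94 in TCEP arrays. The part of these markers in the differences of the mitosis genes was not tested. Of 10 tested tubular injury and repair markers 6 had higher means, with 0 at an unadjusted p under 0.05 in either direction. Loop and distal nephron markers had a median of -0.33 over 9 tested genes, 2 of them higher. Of these 9, 5 were lower at an unadjusted p under 0.05 (background 4.13%) and 4 had all TCEP arrays below all vehicle arrays (background 6.99%), with list means of 0.26, -0.02 and 0.17 in vehicle and between -0.18 and -0.11 in TCEP arrays. Their part in the differences of the mitosis genes was likewise not tested.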

How the data were processed

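Cy3-labelled RNA from 6 rats was read on 1-colour Agilent arrays of 62976 spots, from 0.2 ug of RNA per the labels' protocols. The authors deposited scanner files that come, per the file headers, from Agilent Feature Extraction 10.7.1.1 (10.7 per the submitters' processing notes) and hold a background-subtracted, detrended intensity on a linear scale, not scaled between arrays. The authors' series matrix, an alternative here, holds the deposited ratio of that signal to a constant that came to 100.0% to 100.1% of each array's 75th percentile.

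Of 61657 non-control probes 12 outliers were left out, and 27453 (44.5%) were named through accessions in a GRCr8 RefSeq table, standing for 15284 genes. Groups were compared with limma 3.58.1 (lmFit, eBayes, two-sided) in R 4.3.3, adjusted over 11802 genes by Benjamini-Hochberg with a threshold of 0.05, and the fit was tested on simulated data. SE and intervals carry 5.93 degrees of freedom. With 3 arrays per group, their number limits the precision. The genes and lists were chosen with earlier results of these data known. Values on every array are given for the 14 tested genes with the smallest unadjusted p and the 2 with the lowest differences, and of other lists up to 4 genes (markers up to 2) by smallest unadjusted p were eligible. The arrays of Ttk and Stmn1, array order, further probes and promoter letters beside differences were examined after values were seen. Normexp used median spot signals with an offset of 50, followed by quantile normalization between arrays. Tables and figures were made with Python 3.11.15, pandas 2.3.3 and matplotlib 3.10.9.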

Additional observations from a re-analysis of the deposited data

How the results depend on the processing

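The alternatives were quantile normalization, no scaling, spike-in centring, normexp, dim probes kept, only probes detected on every array, probes of a gene averaged, series matrix values, a replicate block, a variance trend, array weights and leaving out each array. Under all 17, 0 genes were called, and the smallest adjusted p of a mitosis gene was 0.268. Of 645 single-gene values 641 kept their sign. The 4 that turned were all of Espl1, at -0.019 with normexp, -0.028 with array weights, -0.023 without vehicle replicate 2 and -0.12 without TCEP replicate 1, and leaving out 1 array gave -0.12 to 0.21 for it. Each further probe taken on its own kept the sign. The count at an unadjusted p under 0.05, 18 as reported, was 4 with array weights and 4 to 29 on leaving out 1 array. The count without overlap cannot fall on leaving out an array. From 14 as reported it was 14 to 32 there, 32 without vehicle replicate 1, and 10 with spike-in centring. The share of all genes also rose on leaving out 1 array, from 8.66% to between 12.2% and 16.3%. That 32 is the count of genes with vehicle replicates 2 and 3 both below every TCEP array. The cause of the changes in these counts was not tested. The replicate numbers were not taken to pair the rats. Deviations from the group means correlated across genes at -0.15, -0.10 and 0.23 for the 3 same-numbered pairs, and not every array correlated best with its own number. Deviations of 3 arrays from their own mean depend on each other, so these correlations cannot decide whether rats were handled in numbered pairs. With the replicate number as a block the count was 27 (71.1%, against 7.24% of all genes), the median difference 0.51 and 0 genes were called. Dim probes limit what could be seen of Aurkb, Cenpa, Hmmr and Kif2c.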

Other observations

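Genes that hold or release the cell cycle before S phase were also read. Of 18 G1 cyclin, kinase and E2F genes 16 were tested, 11 with higher and 5 with lower means, with a median of 0.08. 3 reached an unadjusted p under 0.05 upward and 1 downward, against 4.24% and 4.13% of all genes, and 0 were called. Cyclin D1 (Ccnd1) was at 2.70, 2.68 and 3.03 in vehicle and 3.49, 3.07 and 3.33 in TCEP arrays (difference 0.49, SE 0.15), and its order over the vehicle arrays was not that of the mitosis genes, with vehicle replicate 3 highest. Cyclin D2 (Ccnd2) differed the other way, at -0.66, -0.61 and -0.55 in vehicle and -1.07, -0.86 and -0.83 in TCEP arrays (difference -0.32, SE 0.09). E2f1, a transcription factor of S phase entry, differed by 0.44 (SE 0.16), with vehicle replicate 1 highest and vehicle replicate 3 lowest of the vehicle arrays, as for most mitosis genes. Ccne2, cyclin E2, differed by 0.46 (SE 0.18).

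Of 16 cell cycle inhibitors and p53-linked genes 13 were tested, 8 with higher and 5 with lower means, with a median of 0.04. At an unadjusted p under 0.05 there was 1 gene in each direction (background 4.24% upward and 4.13% downward). Cdkn2c, the inhibitor p18 of Cdk4 and Cdk6, was at -1.05, -1.06 and -1.01 in vehicle and -0.81, -0.81 and -0.73 in TCEP arrays, tight in both groups and without overlap (difference 0.26, SE 0.06, adjusted p = 0.528 with limma). The stress gene Gadd45b was at 0.26, 0.01 and 0.42 in vehicle and -0.08, -0.26 and -0.39 in TCEP arrays (difference -0.48, SE 0.13). Btg2, an antiproliferative gene that also responds to tissue handling, differed by -0.36 (SE 0.19).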
